A study of Mus musculus with 12 samples.

Results

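Ulk1 and Ulk2, their relatives Ulk3 and Ulk4, and the complex partners Atg13 and Rb1cc1 were followed on 12 whole-genome bead arrays of fibroblasts grown from mouse embryos, which are connective tissue cells. All probes annotated to these 6 symbols were taken, which gave 11 of the 45281 probes on the array, for 6 of 19057 named genes. The cells were of the C57BL/6J strain and either Ulk1/2+/+ (wild type, WT) or Ulk1/2-/- (double knockout, DKO). Each genotype was left untreated or given mouse IFNβ, a type I interferon, at 2500 IU/ml for 6 h, and each of the 4 groups held 3 arrays. The labels do not give the number of embryos or lines behind each genotype, nor whether the 3 arrays of a group came from separate cultures, so p-values measure the spread between these arrays, which may be technical.

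ULK1 and ULK2 are related serine/threonine kinases that start autophagy, the delivery of cell contents to lysosomes for breakdown. They work in a complex with ATG13, which links the kinase to its scaffold and binds membranes, with RB1CC1 (also called FIP200), the scaffold itself, and with ATG101, which stabilises ATG13. The kinase mTORC1 restrains this complex in fed cells and the energy sensor AMPK activates it. ULK3 has been tied to Hedgehog signalling and to autophagy in senescent cells, and ULK4 is a pseudokinase. The title of the series places ULK1 in type I interferon signalling, so the comparisons ask what each of these transcripts does when both kinases are deleted and when IFNβ is given.

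The promoter windows of the 3 genes whose probes changed in any comparison are shown here, since interferon-responsive genes often carry interferon elements there. RefSeq windows of 300 bases on GRCm38.p6, from 250 bases before to 50 after the annotated start, were matched for 5 of the 6 genes, Ulk1, Ulk2, Ulk3, Ulk4 and Atg13. Ulk1 lies at chr5:110810032-110810331 on the minus strand, Ulk2 at chr11:61855043-61855342 on the minus strand and Ulk3 at chr9:57589202-57589501 on the plus strand. Each is written 5′ to 3′ along the gene, with capitals marking matches on either strand to the GC box, GGGCGG, and to the core of the cAMP response element, TGACG:
Ulk1: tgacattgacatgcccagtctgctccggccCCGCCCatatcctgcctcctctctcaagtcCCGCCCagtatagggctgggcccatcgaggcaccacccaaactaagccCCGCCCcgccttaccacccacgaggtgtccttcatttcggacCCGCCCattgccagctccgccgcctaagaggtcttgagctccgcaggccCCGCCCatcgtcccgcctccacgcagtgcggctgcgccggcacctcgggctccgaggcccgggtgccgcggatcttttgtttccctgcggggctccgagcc
Ulk2: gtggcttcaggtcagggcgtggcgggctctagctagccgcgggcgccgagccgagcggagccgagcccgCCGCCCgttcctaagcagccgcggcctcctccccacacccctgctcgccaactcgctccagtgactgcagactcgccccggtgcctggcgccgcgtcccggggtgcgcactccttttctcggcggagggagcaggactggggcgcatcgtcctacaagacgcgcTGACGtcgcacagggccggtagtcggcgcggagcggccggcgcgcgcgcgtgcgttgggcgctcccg
Ulk3: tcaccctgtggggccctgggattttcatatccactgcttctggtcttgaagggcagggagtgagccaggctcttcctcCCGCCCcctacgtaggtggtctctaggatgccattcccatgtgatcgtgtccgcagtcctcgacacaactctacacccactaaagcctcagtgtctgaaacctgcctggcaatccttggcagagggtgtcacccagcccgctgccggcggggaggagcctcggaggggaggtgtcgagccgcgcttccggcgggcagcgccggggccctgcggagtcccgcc
The Ulk1 window held 5 GC boxes, against 1 each for Ulk2 and Ulk3, and the Ulk2 window held 1 core of the cAMP response element. The Ulk4 and Atg13 windows, not printed here, held 0 GC boxes and also 1 such core each. On both strands, 35.7% of all 32851 mouse promoter windows of this length hold a GC box and 20.8% that core. The core of the interferon-stimulated response element, GAAANNGAAA, had 0 matches in the 5 matched windows and occurs in 3.44% of all windows. The gamma-activated sequence, TTCNNNGAA, likewise had 0 matches in the 5 windows and occurs in 8.3% of all windows. The E-box CACGTG had 0 matches in the 5 windows (7.15% of all windows hold it), and the CCAAT box, CCAAT, had 1, in the Ulk4 window (37.4% of all). The windows of Ulk1, Ulk2 and Ulk3 were 68%, 74.7% and 64.7% G and C, above the median of 52.7% over all windows. A match here describes letters only.

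Values are linear intensities as deposited, in arbitrary units, and the levels of different probes are not compared. A probe counted as detected on an array where its deposited detection p-value was under 0.01. Each array had 13732 to 15240 detected probes. The arrays fell into a set with median intensities of 86.5 to 87.9 and a set with 97.5 to 99.7. In both treatments the lower set took 2 WT arrays and 1 DKO array, and the higher set the reverse, so the background sets are unevenly spread over the genotypes. Tests used background-corrected, quantile-normalized log2 values in 1 limma model of the 4 groups over 13737 probes, and called a difference where the p adjusted over those probes by the Benjamini-Hochberg method was under 0.05. The number of arrays limits the precision. Where groups are said to overlap or not, the share of all tested probes that did so was not counted. Such statements describe the arrays only.

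The label of fibroblasts was read from markers. Of 14 fibroblast markers on the array, 11 were detected on all 12 arrays, among them Col1a1, Col1a2, Vim and Twist1. Pdgfra and Dcn were seen on all 6 arrays of WT cells and on 0 of 6 of DKO cells, and Lum on none. The summed intensity of the 14 ran from 17718 to 22592 on WT arrays and from 15546 to 20342 on DKO arrays. Among other cell types, the defining markers Epcam, Pecam1, Cdh5, Ptprc, Adgre1, Myod1, Sox10 and Nanog were not detected on any array, while the T cell gene Cd3e was detected on all 12, the neural gene Sox2 on the 6 WT arrays, and the keratin genes Krt8 and Krt18 on 2 and 3 DKO arrays. Cdh1 was detected on 2 arrays of each genotype, Myog on 2 DKO arrays, and Kdr and Pou5f1 on 1 WT array each. The summed intensity of 4 leukocyte markers ran from 368 to 415 on WT and from 419 to 516 on DKO arrays, and that of 5 epithelial markers from 418 to 478 and from 438 to 525. Sums of 4 neural markers went the other way, from 372 to 441 on WT and from 330 to 394 on DKO arrays. Those of 4 endothelial markers (355 to 406 and 353 to 404) and 4 muscle markers (340 to 393 and 346 to 391) overlapped. These raw sums are not corrected for the background sets. The part of these markers in the results below was not tested. The genotypes also differed in sex-linked transcripts: each of the 4 Xist probes was detected on 6 of 6 DKO and 0 of 6 WT arrays, and 1 of 2 Eif2s3y probes (Y-linked) on 6 of 6 WT and 0 of 6 DKO arrays. Genotype and these sex-linked transcripts therefore cannot be told apart in any DKO against WT value given here.

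Both kinases were measured above background in WT cells and in no DKO array. The array carries 2 probes for Ulk1 and 2 for Ulk2, and in WT cells each probe was detected on 6 of 6 arrays, in DKO cells on 0 of 6. Where these probes lie relative to the deleted part of each gene was not examined, because probe sequences were not used here. At this level, fewer transcripts per cell and fewer cells that hold the transcript cannot be told apart in bulk RNA.

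The brighter Ulk1 probe, ILMN_1228475 (probe 1), had intensities of 158.1, 167.8 and 182.7 on the untreated WT arrays and 146.8, 160.5 and 177.3 after IFNβ. On the DKO arrays it had 90.9, 100.2 and 102.0 untreated and 91.3, 102.5 and 98.6 after IFNβ. Every WT array lay above every DKO array, whereas the treated and untreated arrays of 1 genotype overlapped. Since no DKO array measured it, the difference is a lower bound: without treatment, Ulk1 in DKO cells was at least 3.42-fold below its WT level, and it was at least 2.93-fold lower after IFNβ. These bounds set the mean of the bright group against the higher, per dim array, of the lowest detected signal and the probe's own signal. The fitted log2 differences were -2.10 ± 0.12 (SE, n = 3 per group, limma adjusted p = 9.6e-09) untreated and -1.98 ± 0.12 (limma adjusted p = 1.5e-08) after IFNβ. The size depends on the background correction: without it the same differences were -0.85 and -0.78, still called, so the bounds hold for background-corrected values.

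The other Ulk1 probe, ILMN_2506115 (probe 2), had 146.4, 144.0 and 160.7 on untreated WT arrays and 133.6, 126.3 and 155.9 after IFNβ. On DKO arrays it had 86.4, 98.1 and 102.8 untreated and 88.3, 97.1 and 95.3 after IFNβ. The genotypes again did not overlap and the treatments did. The bounds were at least 2.76-fold lower untreated and at least 2.19-fold lower after IFNβ, beside fitted log2 differences of -1.88 ± 0.11 (limma adjusted p = 1.3e-08) and -1.71 ± 0.11 (limma adjusted p = 3.1e-08).

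**Figure D1:**
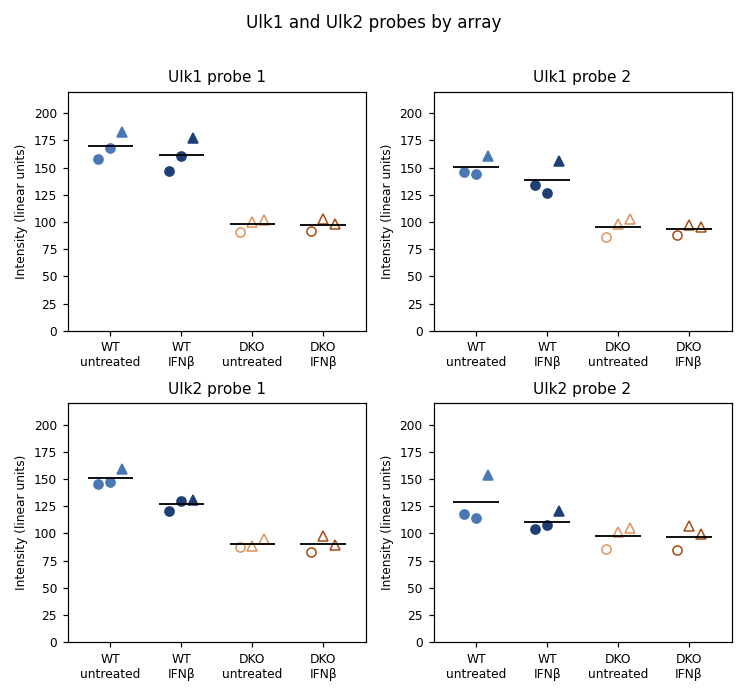
Deposited intensity (linear units, from 0) of each Ulk1 and Ulk2 probe on every array, by group. Circles are arrays of the lower and triangles of the higher background set, filled where the probe was detected, and bars are group means. All WT points are filled and all DKO points are open, between 82.9 and 107.0.

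Ulk2, the other deleted kinase, was lower in DKO cells too. Ulk2 probe 1, ILMN_1244059, had 145.2, 147.2 and 159.2 on untreated WT arrays and 120.2, 129.8 and 130.9 after IFNβ. On DKO arrays it had 87.7, 88.6 and 94.6 untreated and 82.9, 97.4 and 89.2 after IFNβ. Untreated WT arrays were highest, treated WT arrays lower and DKO arrays lowest, with no overlap between these 3 sets and overlap between both DKO groups. By this probe, DKO cells held Ulk2 at least 2.77-fold lower without treatment and at least 1.82-fold lower after IFNβ. The fitted log2 differences were -2.03 ± 0.14 (limma adjusted p = 9e-08) and -1.55 ± 0.14 (limma adjusted p = 1.3e-06), and without background correction -0.79 and -0.57, both called.

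Ulk2 probe 2, ILMN_2496817, was dimmer, with 118.0, 113.8 and 154.1 on untreated WT arrays and 103.9, 107.4 and 120.4 after IFNβ. On DKO arrays it had 85.7, 101.5 and 105.3 untreated and 84.9, 107.0 and 99.3 after IFNβ. In raw intensity its treated WT arrays overlapped with the untreated WT and with the DKO arrays, whose brighter values came from the higher background set. After normalization neither pair overlapped. Its bounds were at least 1.96-fold lower untreated and at least 1.27-fold lower after IFNβ, with fitted log2 differences of -1.32 ± 0.14 (limma adjusted p = 5.8e-06) and -0.82 ± 0.14 (limma adjusted p = 0.00047).

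IFNβ lowered Ulk2 in WT cells. After normalization, Ulk2 probe 1 had log2 values of 6.38, 6.45 and 6.14 on untreated and 5.83, 6.10 and 5.50 on treated WT arrays. Probe 2 had 5.76, 5.66 and 6.05 untreated and 5.27, 5.41 and 5.20 treated. On both probes every treated array lay below every untreated array, on probe 1 by 6.10 against 6.14 at the closest. How many of all tested probes separate in this way was not counted. Probe 1 fell by 0.51 ± 0.14 on the log2 scale (95% interval -0.81 to -0.21, limma adjusted p = 0.023), a 1.43-fold lower level, and probe 2 fell by 0.53 ± 0.14 (95% interval -0.83 to -0.23, limma adjusted p = 0.017), a 1.44-fold lower level. Without background correction the changes were -0.24 (adjusted p = 0.034) and -0.21 (0.035). Both probes measure the same RNA on the same arrays, so they are not independent samples. The calls rest on few arrays. Probe 1 lost its call without WT untreated replicate 1 (adjusted p = 0.072), WT untreated replicate 2 (0.094), WT IFNβ replicate 1 (0.056) or WT IFNβ replicate 3 (0.10, log2 change -0.36). Probe 2 lost it without WT untreated replicate 3 (0.074), WT IFNβ replicate 1 (0.054) or WT IFNβ replicate 3 (0.062). The lower background set alone gave -0.45 (adjusted p = 0.087) and -0.37 (0.14) for probes 1 and 2, and the higher set alone, with 1 WT array per treatment that is assumed to vary like the other groups, gave -0.64 (0.047) and -0.85 (0.023).

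Ulk1 gave smaller changes in the same cells, and these did not pass. Ulk1 probe 1 had a log2 difference of -0.13 ± 0.12 between treated and untreated WT arrays (95% interval -0.39 to 0.12, limma adjusted p = 0.52). Probe 2 gave -0.25 ± 0.11 (95% interval -0.48 to -0.01, limma adjusted p = 0.15, unadjusted p = 0.04). Whether Ulk1 and Ulk2 differ in their IFNβ response was not tested.

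In DKO cells IFNβ gave no call on any member probe, with log2 differences of -0.01 and -0.07 for Ulk1 and -0.03 on both probes of Ulk2. Those probes were not well above background on any DKO array, so a fall could not be measured there. The IFNβ change in DKO minus that in WT was 0.48 for Ulk2 probe 1 (unadjusted p = 0.031, limma adjusted p = 0.51). For probe 2 it was 0.50 (unadjusted p = 0.023, limma adjusted p = 0.46), and neither passed. With no measured DKO change, these values mirror the WT fall and cannot show whether the genotypes respond differently. At an adjusted p under 0.05, 0.823% of tested probes were called in this interaction and 9.89% for IFNβ in DKO cells. Of the 6 tested member probes, 0 were called in either. An unadjusted p under 0.05 was found for 2 member probes in the interaction and 0 for IFNβ in DKO cells. The Ulk1 and Ulk2 probes among the 6 could not show a fall in DKO cells, so nothing is read from these counts.

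In the order of the 4 group means, both Ulk1 and Ulk2 ran from untreated WT through treated WT to the DKO groups on each probe. Treated WT cells lay above untreated DKO cells on all 4 probes, each called, in a comparison where 36% of all tested probes were called. These probes are of the deleted genes and passed the filter through WT arrays only, so nothing is read from these calls. Because both DKO groups were not above background, their distance from WT and their order are not measured. Between treatments of WT cells no Ulk1 difference passed the adjusted threshold.

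Ulk3, the relative tied to Hedgehog signalling, was higher in DKO cells. Its single probe, ILMN_2466637, was detected on all 12 arrays with intensities of 131.2, 137.7 and 162.6 on untreated WT arrays and 135.9, 131.2 and 153.9 after IFNβ. On DKO arrays the intensities were 154.5, 192.0 and 181.0 untreated and 145.1, 174.1 and 167.5 after IFNβ. Raw values of the genotypes overlapped, and the brightest WT arrays were those of the higher background set. After normalization they did not: the log2 values were 6.10, 6.27, 6.19, 6.23, 6.13 and 6.00 on WT arrays, untreated first, and 6.54, 6.58, 6.59, 6.57, 6.43 and 6.44 on DKO arrays. All 6 DKO arrays lay above all 6 WT arrays, and how many of all tested probes separate in this way was not counted.

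Ulk3 was 1.31-fold higher in untreated DKO than WT cells (log2 difference 0.38 ± 0.10, 95% interval 0.17 to 0.60, limma adjusted p = 0.0095) and 1.28-fold higher after IFNβ (0.36 ± 0.10, limma adjusted p = 0.015). Averaged over both treatments the log2 difference was 0.37 ± 0.07 (limma adjusted p = 0.00068). IFNβ gave Ulk3 log2 differences of -0.07 ± 0.10 in WT cells (limma adjusted p = 0.72) and -0.09 ± 0.10 in DKO cells (0.67). Its means ran from untreated DKO through treated DKO and untreated WT to treated WT cells, and the nearest pair across the genotypes differed by 0.29 (limma adjusted p = 0.030), in a comparison that called 41.8% of all probes. That call was lost in either background set alone, where the difference was 0.38 in the lower and 0.24 in the higher set. It was also lost without WT untreated replicate 1 (adjusted p = 0.10) or 3 (0.057) or DKO IFNβ replicate 1 (0.096) or 3 (0.053). The background sets move with this result: the DKO groups hold more arrays of the higher set. Within the lower set alone Ulk3 differed by 0.36 untreated and 0.39 after IFNβ, and within the higher set by 0.39 and 0.44. Of these differences, only that after IFNβ within the higher set kept its call. Per treatment the lower set holds 1 DKO array and the higher set 1 WT array, so each of these values rests on 1 array of 1 genotype. The part of the background set in the Ulk3 difference was not tested. The call after IFNβ was also lost without WT IFNβ replicate 3 (adjusted p = 0.063) or DKO IFNβ replicate 1 (0.054).

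**Figure D2:**
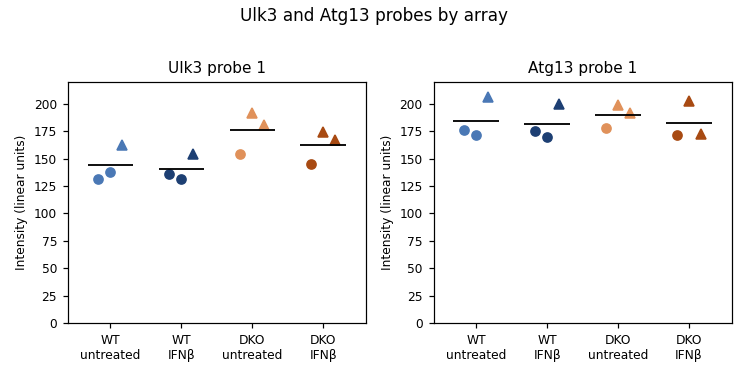
Deposited intensity (linear units, from 0) of the Ulk3 and Atg13 probes on every array, by group, with circles for the lower and triangles for the higher background set and bars for group means. Within a background set, Ulk3 is higher on the DKO than on the WT arrays, while Atg13 lies between 170.1 and 206.7 in all groups.

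Atg13, the adaptor that binds the kinases, showed no called difference. Its probe, ILMN_2632230, had 175.8, 171.3 and 206.7 on untreated WT arrays and 175.6, 170.1 and 199.8 after IFNβ. On DKO arrays it had 178.4, 199.2 and 191.7 untreated and 171.5, 202.4 and 172.5 after IFNβ. All 4 groups overlapped, and the probe was detected on all 12 arrays. The DKO against WT log2 difference was -0.06 (95% interval -0.33 to 0.21, limma adjusted p = 0.77) untreated and -0.01 (95% interval -0.28 to 0.26, limma adjusted p = 0.97) after IFNβ. The IFNβ difference was -0.04 in WT cells (95% interval -0.31 to 0.23) and 0.01 in DKO cells (95% interval -0.26 to 0.28). The group means of Atg13 therefore had no order beyond their spread.

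Ulk4, the pseudokinase, and Rb1cc1, the scaffold, were not measured above background. None of the 2 Ulk4 probes (ILMN_1250420 and ILMN_1257963) and 3 Rb1cc1 probes (ILMN_1255694, ILMN_1258458 and ILMN_2640642) was detected on any of 12 arrays, and they did not enter the tests. Their intensities ran from 78.7 to 98.8 for Ulk4 and from 78.7 to 100.1 for Rb1cc1, which is 0.89 to 1.01 times and 0.881 to 1.05 times the median of the same array. The Ulk1 and Ulk2 probes on DKO arrays lay in a like range, from 0.906 to 1.07 times the array median, and on WT arrays from 1.19 to 1.94 times. When the filter on dim probes was left out, none of the 5 undetected probes was called in any comparison (smallest limma adjusted p = 0.38). A change in these transcripts below the background of the array was not detectable here.

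**Figure D3:**
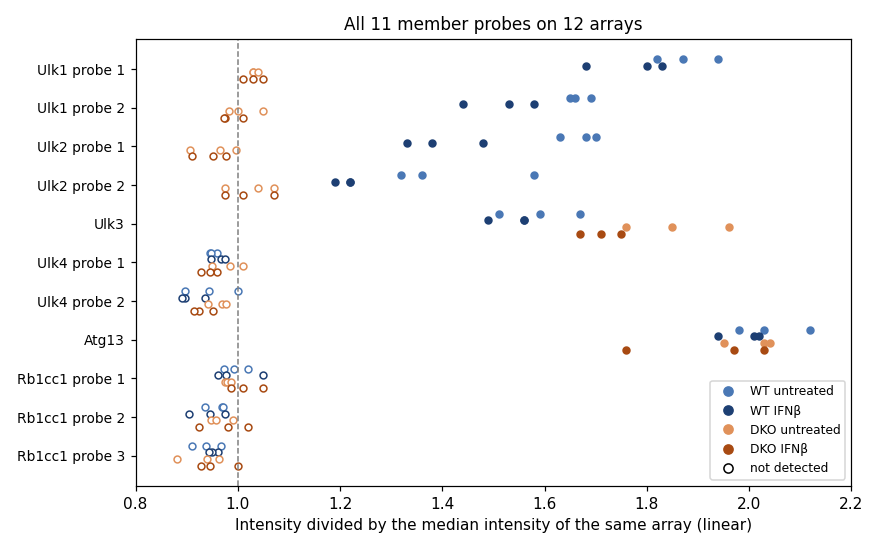
Intensity of all 11 member probes on 12 arrays, divided by the median intensity of the same array (linear axis), coloured by group and open where the probe was not detected. Ulk4, Rb1cc1 and the DKO values of Ulk1 and Ulk2 gather around 1, while Ulk3 is shifted upward in DKO cells.

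Of the 6 tested member probes, 5 were called in untreated DKO against WT cells, 4 lower and 1 higher, where 30.6% of all 13737 tested probes were called (14.5% higher and 16.1% lower). After IFNβ 5 of 6 were called, 4 lower and 1 higher, against 28.9% of all probes (14% higher, 14.9% lower). Over the mean of both treatments 5 of 6 were called against 43.8%. For IFNβ in WT cells, 2 of 6 were called, both lower, against 16.2% of all probes in either direction and 8.56% lower. The 4 lower genotype calls are the deleted genes themselves, which passed the filter through WT arrays only and stand for 2 genes, so nothing is read from these shares. The other 2 tested probes, of Ulk3 and Atg13, gave 1 call, Ulk3. The count over 6 leaves out the 5 probes that did not pass the filter.

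**Figure D4:**
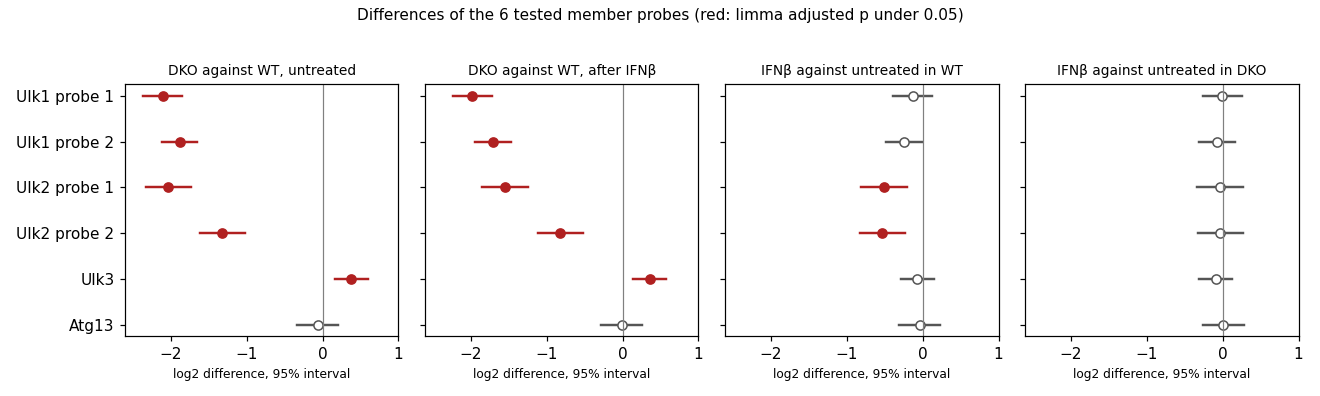
Log2 difference (points) and 95% interval (lines) of the 6 tested member probes in 4 comparisons, red and filled where the limma adjusted p was under 0.05. Ulk1 and Ulk2 lie left of 0 in DKO cells and Ulk3 right of 0, and Ulk2 alone is called for IFNβ in WT cells.

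The genes around the complex were read from 7 lists of regulators, partners and substrates, 62 genes of which 59 were on the array and 51 were tested with 1 probe each. Their p-values are adjusted over the 8898 genes tested, and those given for other probes of a gene over all 13737 probes. In untreated DKO against WT cells 18 of 51 were called, 9 higher and 9 lower, against 15.9% higher and 18% lower among 8898 tested genes. The median log2 difference was -0.01 over the lists and -0.03 over all genes. After IFNβ in WT cells 9 of 51 were called, 1 higher and 8 lower, against 8.09% higher and 10.7% lower among all genes, with medians of -0.09 and -0.08. That count was 4 without WT untreated replicate 1 and 5 without WT untreated replicate 2, WT IFNβ replicate 1 or WT IFNβ replicate 2.

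Within the complex itself, Atg101, the partner of ATG13, had a log2 difference of 0.22 ± 0.11 in untreated DKO cells (limma adjusted p = 0.14) and was higher after IFNβ at 0.37 ± 0.11 (limma adjusted p = 0.017). Of the 3 tested genes in the list of this subunit and the chaperones, 0 were called untreated. The unadjusted p was under 0.05 for 1 of them, Cdc37, a kinase chaperone, at -0.36.

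Among 8 genes of mTORC1 and its regulators, 2 were higher and 3 lower in untreated DKO cells. Deptor, an inhibitor that binds mTOR, was higher, with a fitted log2 difference of 1.49 ± 0.17 (limma adjusted p = 1.5e-05). It was detected on 1 of 3 untreated WT arrays and 3 of 3 DKO arrays, so the size of that difference is uncertain. Mtor, the kinase itself, fell by 0.64 ± 0.11 (limma adjusted p = 0.00064), whereas its other probe gave -0.10 (adjusted p = 0.57), so the fall depends on the probe. Akt1s1, which encodes the mTORC1 inhibitor PRAS40, fell by 0.28 ± 0.09 with IFNβ in WT cells (limma adjusted p = 0.037).

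Of 7 genes of AMPK, the kinase that activates ULK1 when energy is low, and of its upstream kinase LKB1, 2 were lower in untreated DKO cells and 3 fell with IFNβ in WT cells. Prkab1, a regulatory β subunit, was lower by -0.55 ± 0.11 (limma adjusted p = 0.0017) and Prkag1, a nucleotide-sensing γ subunit, by -0.45 ± 0.12 (limma adjusted p = 0.011). With IFNβ Prkag1 fell by 0.49 ± 0.12 (limma adjusted p = 0.013) and Prkag2, another γ subunit, fell by 0.78 ± 0.12 (limma adjusted p = 0.00043). The normalized log2 mean of Prkag2 was 5.81 without and 5.03 with IFNβ in WT cells, where DKO cells had 6.00 and 5.40.

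Among 7 genes that control ULK1 stability, Ambra1, a ubiquitin ligase adaptor for ULK1, was higher at 0.52 ± 0.12 in untreated DKO cells (limma adjusted p = 0.0036). Its other probe gave 0.16 (0.48), and after IFNβ the difference of the first probe was 0.25 (0.12). Nedd4l, a ubiquitin ligase that targets ULK1, was lower at -0.30 ± 0.10 (limma adjusted p = 0.030) without treatment, whereas after IFNβ it was at 0.20 (0.15) and over both treatments at -0.05 (0.58). IFNβ lowered Usp20, a deubiquitinase of ULK1, which fell by 0.51 ± 0.11 in WT cells (limma adjusted p = 0.0059). Cul3, the scaffold of a ligase that removes ULK1, fell by 0.40 ± 0.13 (limma adjusted p = 0.042), and its other probe gave -0.35 (0.021).

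Of 4 tested substrates in the class III PI3K complex, which marks the forming autophagosome with a lipid, 1 was higher and 1 lower. Becn1, the core subunit Beclin 1, was at a log2 difference of -0.78 ± 0.11 (limma adjusted p = 7.5e-05), whereas its other probe gave -0.07 (0.84). Uvrag, an alternative subunit, was at 0.58 ± 0.11 (limma adjusted p = 0.00095). None of the 4 was called for IFNβ in WT cells.

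Of 16 other substrates and recruited proteins, 1 was higher and 2 lower in untreated DKO cells. Map1lc3a, an LC3 protein of the autophagosome membrane, was at a log2 difference of 0.80 ± 0.17 (limma adjusted p = 0.0025), and its other probe at 0.06 (0.80). Wipi2, which reads the lipid mark, was at -0.62 ± 0.14 (limma adjusted p = 0.0037), and its other probes gave -0.69 (0.0022) and -0.34 (0.058). After IFNβ the genotype difference of Wipi2 was -0.14 (limma adjusted p = 0.49). IFNβ lowered Wipi2 in WT cells, where it fell by 0.71 ± 0.14 (limma adjusted p = 0.0026), with -0.45 (0.026) and -0.40 (0.075) on the other probes. Sting1, an adaptor of DNA sensing that ULK1 phosphorylates, rose by 0.72 ± 0.14 with IFNβ in WT cells (limma adjusted p = 0.0022) and was the single listed gene called higher there.

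Of 6 tested genes of Hedgehog signalling, the pathway ULK3 has been tied to, 4 were higher and 0 lower in untreated DKO cells, against 15.9% higher among all tested genes. A link to Ulk3 was not tested. Besides Gli2 and Smo, these were Ptch1 at 0.38 (limma adjusted p = 0.027) and Stk36 at 0.44 (0.032), the latter detected on 2 of 3 untreated WT arrays. Over the mean of both treatments 4 were higher and 1 lower, Gli3 at -0.24 (limma adjusted p = 0.037), where 1915 of 8898 genes were higher and 2281 lower. The untreated count of higher genes was 2 without WT untreated replicate 3, DKO untreated replicate 1 or DKO untreated replicate 2. It was 2 on the authors' log2 scale as well, with 0 lower in each. The untreated counts of 4 higher and 0 lower hold for the probe used per gene. The other Sufu probe was at -0.38 (adjusted p = 0.023), and other probes of Ptch1 and Stk36 were not examined. Gli2, a transcription factor of the pathway, was at a log2 difference of 0.89 ± 0.14 (limma adjusted p = 3e-04), and its other probe at 0.24 (0.17). Smo, the transducing receptor, was at 0.41 ± 0.10 (limma adjusted p = 0.0060), but its other probes gave -0.04 (0.87) and 0.09 (0.69). Sufu, the inhibitor of the GLI factors, fell by 0.38 ± 0.13 with IFNβ in WT cells (limma adjusted p = 0.049 over genes, 0.057 over all probes), while its other probe gave 0.06 (0.81). For Gli2, Smo and Sufu, and for Mtor, Becn1, Ambra1 and Map1lc3a above, the call rests on 1 probe of the gene.

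Position was examined for both deleted genes. Of the 10 annotated genes on either side of Ulk1, 8 were on the array and 5 were tested, and 4 of these were lower and 0 higher in untreated DKO cells, against 18% lower among all tested genes. These were Pus1, a tRNA pseudouridine synthase, at a log2 difference of -0.76, Ep400, a chromatin remodeller, at -0.54, Pitpnb, a lipid transfer protein, at -0.53, and Ddx51, an RNA helicase, at -0.46. Chek2, a DNA damage kinase, had -0.40 (limma adjusted p = 0.11). Around Ulk2, 12 neighbours were on the array and 8 were tested, of which 4 were lower and 1 higher. The lower ones were Prpsap2, which lies next to Ulk2, at -0.69, Epn2 at -0.53, Zswim7 at -0.45 and Akap10 at -0.32, and Specc1 was higher at 0.55. None reached a 2-fold difference, so these 9 names, chosen after their values were seen, are given as a description of the 13 tested neighbours. Of the 9, Prpsap2 and Akap10 lay near the threshold untreated (limma adjusted p = 0.044 and 0.039) and were not called after IFNβ (0.057 and 0.16). Fam83g, near Ulk2, was called only after IFNβ, at -0.72 (limma adjusted p = 0.023). Other probes of the neighbours were not examined. With the lower background set alone 4 of the 13 were called.

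**Figure D5:**
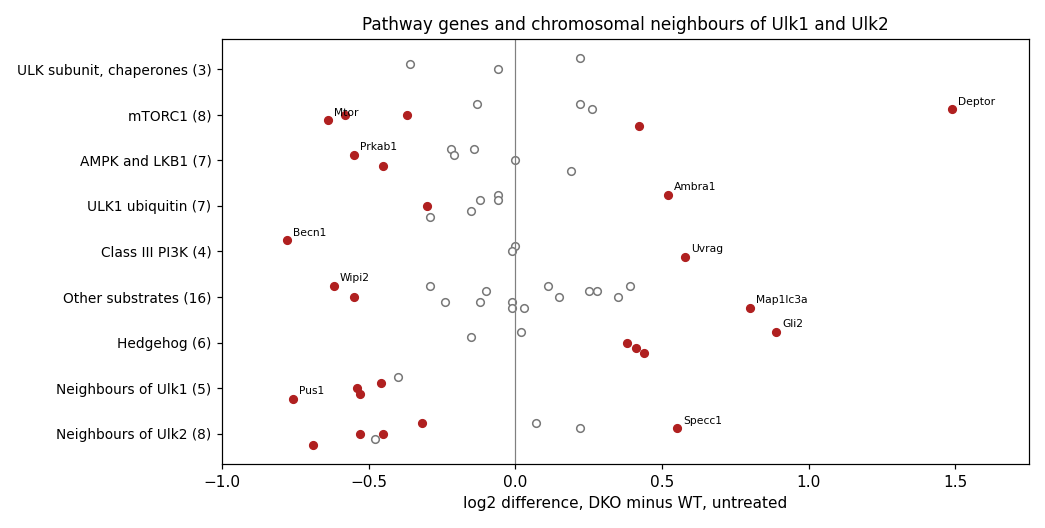
Log2 difference between untreated DKO and WT cells for the 51 tested pathway genes by list and for the 13 tested neighbours of Ulk1 and Ulk2 (number of genes in brackets, red and filled where the limma adjusted p was under 0.05). Points are spread vertically for legibility. Listed genes lie on both sides of 0 and 8 of 13 neighbours are called lower.

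The genes whose mean-centred log2 profiles over the 12 arrays lay nearest to the brighter probe of each called member were found among 8897 other genes. For Ulk1 they were Sema4f, Fam110c and Ahcy, at root-mean-square distances of 0.11, 0.119 and 0.136 against a median of 1.04. For Ulk2 they were Lrrc57, Slco4a1 and Sh3bgrl2, at 0.138, 0.155 and 0.156 against a median of 0.932. Apart from Ahcy, these were detected on 6 WT and 0 DKO arrays as the deleted genes were, so likeness here rests on the genotype step. Both medians were close to the root-mean-square size of the member's own profile, 1.03 for Ulk1 and 0.925 for Ulk2. A flat profile would lie at that distance. Ulk2 itself was the 9th nearest profile to Ulk1, at 0.204, while the 2 probes of Ulk1 lay 0.172 apart and those of Ulk2 0.416. For Ulk3 the nearest were Psmc4, Pja2 and Rlim, at 0.036, 0.058 and 0.0652 against a median of 0.312. All 3 were detected on 12 arrays.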

How the data were processed

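RNA of 12 cell samples was hybridised to Illumina mouse bead arrays as biotin-labelled cRNA, per the labels. The deposited intensity values are linear, 1 per probe and array, without background subtraction or normalization, and the deposited detection p-values are shares of negative controls that were as bright or brighter. The deposited log2 values had equal quantiles on all arrays and were an alternative; the sources used here name no software for them. Genes were named from the platform annotation, which gave 34885 probes 1 gene.

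Values were background-corrected (normexp, offset 16), quantile-normalized and taken to log2 with neqc of limma 3.58.1 in R 4.3.3 (data.table, version 1.17.8). Probes detected at p under 0.01 on at least 3 arrays were tested, 13737 in all, or 8898 genes with their probe of highest mean. A model of 4 group means with 8 residual and 5.90 prior degrees of freedom was moderated by eBayes and had been tested on simulated data. Gene names of neighbours and promoter windows came from RefSeq on GRCm38.p6. Figures were drawn with matplotlib.

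The members and lists were chosen with earlier results of these data known. From each pathway list up to 2 called genes with the smallest p were named for genotype untreated and for IFNβ in WT cells, with the 3 nearest profiles of each called member and neighbours changed at least 2-fold. Genes named outside this rule, such as Atg101, Cdc37 and the neighbours below that fold, were chosen after their values were seen. Same-numbered arrays of 1 genotype deviated together from their group means (correlation across genes of 0.32 to 0.62 in 6 pairs). All 6 pairs also shared a background set, and 4 pairs of 1 genotype sharing a set but not a number gave 0.06 to 0.22. Between genotypes, same-numbered pairs gave 0.33 to 0.42 within a set and -0.36 to -0.25 across sets, and differently numbered pairs 0.3 to 0.42 and -0.6 to -0.14. The numbers were read as pairing arrays within a genotype, and the part of the set was not tested. Alternatives were other background, scaling and filter choices, the background set and replicate number as blocks, each background set alone, and leaving out each array.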

Additional observations from a re-analysis of the deposited data

How the results depend on the processing

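For single probes of the 6 tested, no called difference changed sign under any alternative run: of 546 values 537 kept their side of the threshold and 9 lost their call, and of 576 values with 1 array left out 563 kept it and 13 lost it. The losses were those of Ulk2 with IFNβ in WT cells and of Ulk3 between genotypes. Ulk2 probe 1 also lost its call after median scaling (-0.54, adjusted p = 0.053), which left 1 member probe called for IFNβ in WT cells, and 0 were called with the lower background set alone and 0 to 2 with 1 array left out. Requiring detection on all 12 arrays removes the Ulk1 and Ulk2 probes, and then 1 of 2 member probes was called untreated, 1 after IFNβ, 1 for the mean of both treatments and 0 for IFNβ in WT cells. With 1 probe per gene the counts were 3, 3, 3 and 1 of 4. Of the pathway genes, 6 were called untreated in the lower set alone, and for IFNβ in WT cells 5 in the lower set, 3 in the higher set and 4 to 9 with 1 array left out. Of the genes next to Ulk1 and Ulk2, 4 were called in the lower set. Of the Hedgehog genes, 2 were called without background correction, 2 with the authors' values, 1 in the lower and 2 in the higher set, and 2 to 4 with 1 array left out. The cause of these changes was not tested, and some of these runs also had fewer arrays or probes. With the replicate number within genotype as a block, Ulk2 fell by 0.51 (adjusted p = 0.0023) and 0.53 (0.0071) with IFNβ in WT cells, and no member call changed under this pairing or with a replicate block over both genotypes. The Ulk1 and Ulk2 probes lie within 1.94 times the array median even in WT cells, so signal over background limits how large a loss can be read.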
